A study of Mus musculus with 6 samples.

Results

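The enzymes described here add chemical groups to histones and DNA, or take them off. They are the 60 genes, of 19938 measured, whose symbol is Hdac, Sirt, Kdm, Kat, Prmt, Dnmt or Tet with a number and optional letters. The rule reads gene names and no expression value, but it was set with earlier results of these data known. The arrays are Affymetrix Mouse Gene 1.0 arrays of C57B/6 mouse bone marrow cells grown with recombinant GM-CSF, a cytokine that drives myeloid growth, at 20 ng/ml over 6 days. All 6 samples share this culture and were left unstimulated, and by their labels 3 arrays hold dendritic cells and 3 hold macrophages. The genes' enzyme families were compared between these populations. Sex and age of the mice, the markers used to separate the populations, and the origin of the replicates (separate mice, or 1 culture) are not stated in the labels used here. The p-values thus measure only a spread among samples that may be technical.

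Histone tails carry acetyl groups on lysines, which open chromatin and are bound by activating proteins, and methyl groups on lysines and arginines, whose effect depends on the residue. Acetyl groups are added by lysine acetyltransferases (Kat) and removed by histone deacetylases (Hdac) and by the NAD-dependent sirtuins (Sirt). Methyl groups are removed from lysines by the Kdm enzymes and added to arginines by the Prmt enzymes. On DNA, Dnmt enzymes methylate cytosine and Tet enzymes oxidise methylcytosine. In myeloid cells these enzymes are known to set which enhancers and cytokine genes can be used, and many also act on proteins other than histones.

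Levels are the deposited log2 RMA values, and a difference is the mean of the dendritic arrays minus that of the macrophage arrays, on that scale, ± SE from limma (n = 3 per population). A gene was called when its Benjamini-Hochberg adjusted p over all 19938 genes was under 0.05. Brightness depends on the probes, so levels are compared within a gene and never between genes. In bulk RNA, fewer cells of a type and less RNA per cell cannot be told apart. The 8 dendritic markers measured (among them Flt3, Zbtb46 and Ccr7) were all higher in the dendritic arrays, and the 6 macrophage markers measured (among them Csf1r and Mertk) were all lower, so the labels fit their markers. Replicate 1 of both populations stood apart in 10 neutrophil markers, whose mean was 7.40 and 7.61 there and 6.34 to 6.57 on the other 4 arrays. Of 5 progenitor markers, Kit, Myb and Hlf were higher in the dendritic population (list means of 5.09 to 5.65 against 4.17 to 4.54). Lymphoid, mast cell and basophil, and stromal marker means were between 3.95 and 4.98 on every array, where the median of all probe sets was 4.79 to 4.96. Single markers could lie above these medians, such as Gata2 and Prss34 (population means of 5.29 to 6.00, not called). Of these lists only Cd79a was called, higher by 0.81 ± 0.19 (limma adjusted p = 0.0129) but below the medians. Of the neutrophil markers only Mpo was called, lower by -0.74 ± 0.19 (0.0207). The part of these cells in the differences below was not tested. Leaving out replicate 1 of both populations kept 14 of the 17 calls among the enzymes.

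Of the 60 enzyme genes, 17 were called (28.3%), where 21.6% of all genes were called. The dendritic population was higher for 12 members (20.0%), where 9.98% of all genes were called higher, and lower for 5 (8.33%), where 11.6% were called lower. The median difference over the 60 was 0.11, beside 0.03 over all genes. A called difference of at least 2-fold was held by 7 members, and by 10.3% of all genes. The populations did not overlap for 27 of 60 members (45.0%), against 34% of all genes. Over the whole table, the share called higher and the share without overlap thus lay above those of all genes, and the share called lower below. But few members were dim: 7 of 60 had a mean under every array's median, beside 8582 of all 19938 genes. Without genes under the median, 16 of 52 members were called, where 40.6% of genes were called. Of these members 10 were higher and 6 lower, beside 1840 and 2207 of the genes kept. The share of members called higher was then close to that of the genes kept, and the share called lower was smaller. The comparison with all genes thus depends on their level. The lists set against all genes below also held few such dim genes, 1 or 2 each. The shares of all genes beside them are thus not matched for level, and a matched comparison was not made. The families differed in their counts: 9 of 18 Kdm genes, 3 of 7 Sirt genes, 2 of 11 Hdac genes and 1 each of 8 Kat, 8 Prmt and 5 Dnmt genes were called, and none of 3 Tet genes. Without the Kdm genes, 8 of the other 42 members were called (19.0%). The difference between families was not tested.

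**Figure D1:**
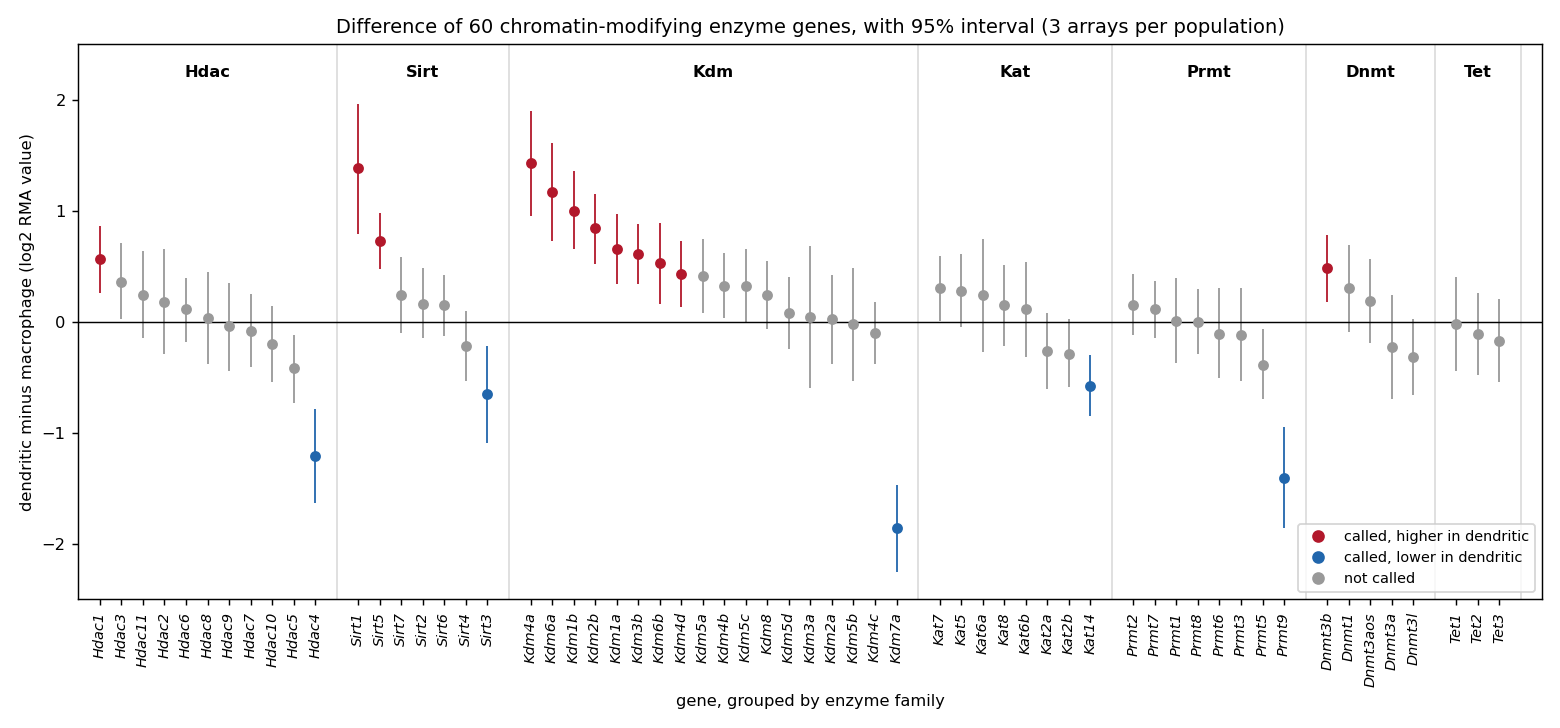
Each point is the dendritic minus macrophage difference of 1 gene in log2 RMA units with its 95% interval, for the 60 genes grouped by enzyme family (3 arrays per population). Red and blue points passed the adjusted p of 0.05. The Kdm family holds 8 of the 12 genes higher in the dendritic population, and Kdm7a has the lowest value, -1.86.

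The lysine demethylases were the family with the highest median difference, 0.37, with 15 of 18 members above 0 and 8 called higher (Kdm2a, Kdm3a and Kdm5d, all near 0 and not called, fell below 0 in some alternatives). The largest difference in the family upward was that of Kdm4a, a JmjC enzyme that demethylates lysines 9 and 36 of histone H3. Its levels were 8.39, 7.52 and 7.86 in the dendritic arrays and 6.43, 6.60 and 6.47 in the macrophage arrays. All dendritic values lay above all macrophage values, replicate 1 highest, with a difference of 1.43 ± 0.21, or 2.69-fold (limma adjusted p = 0.00103). The values of its relatives were smaller. Kdm4b differed by 0.32 (adjusted p = 0.121), Kdm4c by -0.10 (0.696), and Kdm4d was called at 0.43 ± 0.13 (0.0493), a margin that was lost in 8 of 14 alternatives.

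Kdm6a, also called UTX, removes methyl groups from lysine 27 of histone H3, the mark laid by Polycomb. It measured 7.53, 7.01 and 7.20 in the dendritic and 6.42, 5.98 and 5.82 in the macrophage arrays. The groups were separate and differed by 1.17 ± 0.19, or 2.25-fold (adjusted p = 0.00219). Its paralog Kdm6b (JMJD3), an inducible enzyme of inflammatory gene activation, measured 7.47, 7.32 and 7.64 against 6.67, 7.03 and 7.16. These values did not overlap either, but the nearest arrays were close, and the difference of 0.53 ± 0.16 (adjusted p = 0.0474) lost its call in 9 of 16 alternatives, with adjusted p between 0.0192 and 0.161. Kdm6b was not called without replicate 1 of both populations (0.39, adjusted p = 0.112).

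Kdm7a went the other way. It is a JmjC enzyme with a PHD finger that demethylates lysines 9 and 27 of histone H3. Its levels were 6.99, 6.63 and 6.36 in the dendritic and 8.56, 8.60 and 8.39 in the macrophage arrays. Every macrophage array was brighter than every dendritic array, and the difference of -1.86 ± 0.17, a 3.63-fold lower value, was the largest of the 60 members (adjusted p = 6.74e-05). A second probe set of the gene, which was not used for the test, gave -1.94. Among enzymes that act on the same residue, 2 genes with a higher value (Kdm6a, Kdm6b) thus stood beside 1 with a lower value (Kdm7a).

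The amine oxidases Kdm1a and Kdm1b (LSD1 and LSD2) demethylate lysine 4 of histone H3 and use FAD instead of the iron and 2-oxoglutarate of the JmjC enzymes. Kdm1b measured 6.31, 6.07 and 6.61 in the dendritic and 5.35, 5.38 and 5.26 in the macrophage arrays. The macrophage values were tight and all below the dendritic ones, and the difference was 1.00 ± 0.16, or 2-fold (adjusted p = 0.0015). Kdm1a, the catalytic subunit of the CoREST complex, was higher by 0.65 ± 0.14 (adjusted p = 0.00852). Kdm2b, which takes a Polycomb complex to unmethylated CpG islands, was higher by 0.84 ± 0.14 (adjusted p = 0.00212), and Kdm3b, a lysine 9 demethylase, by 0.61 ± 0.12 (0.00522). Their paralogs Kdm2a (0.02, 95% interval -0.38 to 0.42) and Kdm3a (0.04, -0.60 to 0.68) were not called.

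The Kdm5 enzymes remove trimethylation of lysine 4 of histone H3, and none was called. Kdm5a differed by 0.41 ± 0.15 (adjusted p = 0.0856), with groups that did not overlap, and a fit that blocked on the replicate number called it (adjusted p = 0.032). Kdm5b differed by -0.02 (95% interval -0.53 to 0.48) and Kdm5c by 0.32 (0.00 to 0.65). The Y-linked Kdm5d was measured at 6.46 to 6.87 in the dendritic and 6.47 to 6.61 in the macrophage arrays, a difference of 0.08. Kdm8, a JmjC protein hydroxylase, differed by 0.24 (adjusted p = 0.301).

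Of the sirtuins, Sirt1 and Sirt5 were higher in the dendritic population and Sirt3 was lower. Sirt1, a nuclear deacetylase of histones, p53 and NF-kB, measured 7.22, 6.73 and 7.38 in the dendritic and 6.30, 5.48 and 5.43 in the macrophage arrays. Macrophage replicate 1 was the highest of its group and still under the lowest dendritic array. The difference was 1.38 ± 0.26, or 2.59-fold (adjusted p = 0.00420), and 1.60 without replicate 1 of both populations (0.000595). Sirt5, a mitochondrial enzyme that removes succinyl and malonyl groups, was higher by 0.73 ± 0.11 (adjusted p = 0.00148). Sirt3, the main mitochondrial deacetylase, measured 5.74, 5.91 and 6.29 against 6.31, 6.74 and 6.85, with dendritic replicate 3 and macrophage replicate 1 nearly level. Its difference of -0.65 ± 0.19 (adjusted p = 0.0388) lost its call in 7 of 16 alternatives, with adjusted p between 0.00506 and 0.141. Sirt2, Sirt4, Sirt6 and Sirt7 lay between -0.22 and 0.24 and were not called.

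**Figure D2:**
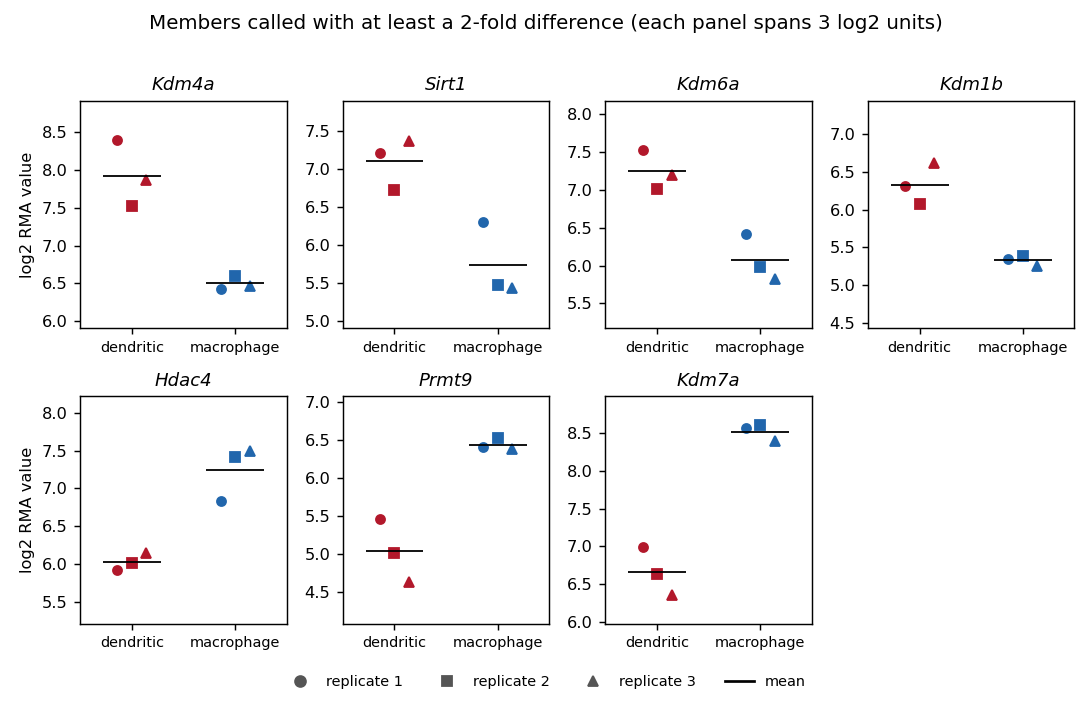
Log2 RMA values on each array for the 7 genes called with at least a 2-fold difference. Marker shapes are replicates 1 to 3, black lines are means, and every panel spans 3 log2 units. The populations do not overlap for any of the 7, with Kdm4a, Sirt1, Kdm6a and Kdm1b higher in the dendritic arrays and Hdac4, Prmt9 and Kdm7a lower.

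The promoters of Kdm4a, Kdm6a, Sirt1, Kdm7a and Prmt9 are shown, chosen from the 7 genes called with at least a 2-fold difference. Each line gives the 250 bases before the transcription start in RefSeq's annotation of GRCm38.p6, 5′ to 3′ on the gene's strand. Capitals mark the E-box CACGTG and the cyclic AMP response element TGACGTCA, which were searched for on both strands and are each their own reverse complement.
Kdm4a promoter, chr4:118180044-118180293, minus strand: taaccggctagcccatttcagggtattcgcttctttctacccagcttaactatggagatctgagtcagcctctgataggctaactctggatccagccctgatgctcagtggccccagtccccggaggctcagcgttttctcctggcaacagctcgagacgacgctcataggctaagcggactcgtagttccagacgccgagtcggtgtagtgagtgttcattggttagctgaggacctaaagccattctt
Kdm6a promoter, chrX:18162325-18162574, plus strand: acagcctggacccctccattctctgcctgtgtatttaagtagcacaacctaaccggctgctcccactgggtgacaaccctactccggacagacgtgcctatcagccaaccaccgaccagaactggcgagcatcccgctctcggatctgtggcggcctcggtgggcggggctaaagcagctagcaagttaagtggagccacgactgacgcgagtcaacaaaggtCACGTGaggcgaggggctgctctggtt
Sirt1 promoter, chr10:63339036-63339285, minus strand: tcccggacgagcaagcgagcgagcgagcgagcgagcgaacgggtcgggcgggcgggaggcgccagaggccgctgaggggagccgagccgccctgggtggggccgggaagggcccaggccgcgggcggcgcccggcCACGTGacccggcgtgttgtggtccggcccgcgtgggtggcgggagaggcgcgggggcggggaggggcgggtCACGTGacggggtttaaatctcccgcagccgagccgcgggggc
Kdm7a promoter, chr6:39206774-39207023, minus strand: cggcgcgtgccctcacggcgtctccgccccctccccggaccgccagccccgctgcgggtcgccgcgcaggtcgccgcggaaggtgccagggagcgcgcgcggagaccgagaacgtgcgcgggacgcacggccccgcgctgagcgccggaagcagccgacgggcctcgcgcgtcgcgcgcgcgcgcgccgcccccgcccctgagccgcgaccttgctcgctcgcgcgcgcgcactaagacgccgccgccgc
Prmt9 promoter, chr8:77549147-77549396, plus strand: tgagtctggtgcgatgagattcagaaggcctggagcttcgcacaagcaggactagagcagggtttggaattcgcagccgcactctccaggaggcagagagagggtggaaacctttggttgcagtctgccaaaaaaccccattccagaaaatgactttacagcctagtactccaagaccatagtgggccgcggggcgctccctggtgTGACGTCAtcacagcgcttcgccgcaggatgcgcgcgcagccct
The E-box occurs once upstream of Kdm6a and at 2 places upstream of Sirt1, and the response element once upstream of Prmt9, while the windows of Kdm4a and Kdm7a hold neither. The windows of the other genes of at least 2-fold, Kdm1b and Hdac4, are not shown and hold neither. Among 74 promoters of 51 members in the table, 8 (10.8%) hold the E-box, against 6.6% of 21254 promoters of protein-coding genes. The response element is in 1 member promoter (1.4%) and in 1.9% of the protein-coding ones. Other motifs were also searched for and are not marked. The SP motif GGGCGG was in 58.1% of member promoters and 42.6% of the protein-coding ones, and the CCAAT box in 37.8% and 35.4%. The ETS, NRF1 and NF-kB motifs were in 9.5%, 1.4% and 1.4% of member promoters, against 9.0%, 1.1% and 1.4%. The ratio of observed to expected CpG was at least 0.6 in 52 member promoters (70.3%) and in 44.7% of the protein-coding ones, and it was 0.67 for Kdm4a, 0.68 for Kdm6a and Prmt9, 1.07 for Sirt1 and 1.35 for Kdm7a. These letters describe the windows and were set against no binding data.

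Of the zinc-dependent histone deacetylases 2 of 11 were called (18.2%, beside 21.6% of all genes), with a median of 0.03, as over all genes. Hdac4, a class IIa enzyme that shuttles between cytoplasm and nucleus and represses Mef2 target genes, was the member with the largest difference. It measured 5.93, 6.02 and 6.15 in the dendritic and 6.83, 7.42 and 7.50 in the macrophage arrays. Macrophage replicate 1 was the lowest of its group but above every dendritic array, and the difference was -1.21 ± 0.19, or 2.32-fold lower (adjusted p = 0.00141). A second, unused probe set of Hdac4 gave -0.67, so the size depends on the probes. All 4 class IIa members had a value below 0. Hdac5 differed by -0.42 ± 0.14 (adjusted p = 0.0565) with separate groups, and a replicate block brought it to a call (0.0344). Hdac7 (-0.08, 95% interval -0.41 to 0.25) and Hdac9 (-0.04, -0.44 to 0.35) were not called, and the sign of both turned in some alternatives.

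All 4 class I members, the nuclear enzymes of the large corepressor complexes, had a value above 0, although Hdac2 and Hdac8 turned below 0 in some alternatives. Hdac1, the catalytic subunit of the Sin3, NuRD and CoREST complexes, measured 8.71, 8.40 and 8.59 against 8.01, 8.09 and 7.90. The groups were separate, with a difference of 0.56 ± 0.13 (adjusted p = 0.014). The call was lost without macrophage replicate 3 (adjusted p = 0.0605). A second probe set named Hdac1 gave the same 0.56, and a near-identical copy of this gene may share its signal, so the gene is uncertain. Its partner Hdac2 differed by 0.18 (95% interval -0.29 to 0.65), and Hdac3, which works in a separate corepressor complex, by 0.36 ± 0.15 (adjusted p = 0.144, or 0.0472 under the replicate block). Hdac8 differed by 0.03. The class IIb genes Hdac6 (0.11), a tubulin deacetylase, and Hdac10 (-0.20), a polyamine deacetylase, and the class IV gene Hdac11 (0.24) were not called.

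The lysine acetyltransferases included 1 called gene of 8 (12.5%, beside 21.6% of all genes). Kat14, a subunit of the ATAC complex, was lower, with 5.95, 5.86 and 5.78 in the dendritic and 6.51, 6.46 and 6.36 in the macrophage arrays. The spread in each population was small beside the difference of -0.58 ± 0.12 (adjusted p = 0.00784), and Kat14 was called in 16 of 16 alternatives. The GCN5 and PCAF enzymes Kat2a (-0.26, adjusted p = 0.318) and Kat2b (-0.29, 0.194), alternative catalytic subunits of the ATAC complex, also had values below 0 and did not pass. The MYST enzymes Kat5, Kat6a, Kat6b, Kat7 and Kat8 had differences of 0.28, 0.24, 0.11, 0.30 and 0.15, none called. The family median was 0.13.

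Among the arginine methyltransferases only Prmt9 was called, out of 8 (12.5%, beside 21.6% of all genes). Prmt9 makes symmetric dimethylarginine on a splicing factor. It measured 5.46, 5.01 and 4.63 in the dendritic and 6.41, 6.52 and 6.38 in the macrophage arrays. The dendritic values were spread over most of a log2 unit and the macrophage values were tight, yet the groups were separate, and the difference was -1.41 ± 0.20, or 2.65-fold lower (adjusted p = 0.000881). Prmt5, the main symmetric enzyme, differed by -0.39 ± 0.14 (adjusted p = 0.0871, or 0.0474 under the replicate block). Prmt1, the main asymmetric enzyme, differed by 0.01 (95% interval -0.37 to 0.39). Prmt2, Prmt3, Prmt6, Prmt7 and Prmt8 lay between -0.12 and 0.15, and the median of the family was -0.05.

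Of the DNA methyltransferase genes, Dnmt3b alone was called. This de novo enzyme measured 4.85, 5.03 and 4.67 in the dendritic and 4.32, 4.35 and 4.43 in the macrophage arrays. All of these values are close to the array medians, and the difference of 0.48 ± 0.13 (adjusted p = 0.0301) lost its call in 6 of 15 alternatives, with adjusted p between 0.0139 and 0.11. The maintenance enzyme Dnmt1 measured 7.99, 8.13 and 8.45 against 7.68, 7.84 and 8.15, overlapping groups that differed by 0.30 (95% interval -0.09 to 0.69; adjusted p = 0.308). Between arrays of one replicate number Dnmt1 differed by 0.32, 0.29 and 0.30, and the replicate block gave an adjusted p of 0.0859, not a call. The other de novo enzyme, Dnmt3a, measured 7.17, 6.83 and 6.64 against 7.52, 6.97 and 6.84. In both populations replicate 1 was the brightest for Dnmt3a, and the difference was -0.23 (adjusted p = 0.566). Its antisense gene Dnmt3aos, which codes for no enzyme and is a member by its symbol, measured 5.09, 5.56 and 5.21 against 5.33, 4.93 and 5.04, a difference of 0.19 (adjusted p = 0.569). The catalytically inactive cofactor Dnmt3l was dim throughout, with 3.15, 3.48 and 3.62 against 3.68, 3.84 and 3.70, a difference of -0.32 (adjusted p = 0.19).

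No Tet gene was called, and the populations overlapped for all 3. Tet2, the enzyme whose loss is known to expand myeloid cells, measured 6.53, 6.92 and 6.48 in the dendritic and 6.70, 6.96 and 6.61 in the macrophage arrays. The difference of -0.11 ± 0.16 has a 95% interval from -0.48 to 0.26. Tet3 measured 6.71, 6.36 and 6.19 against 6.54, 6.77 and 6.48, a difference of -0.17 (-0.54 to 0.20). Tet1 was dim, with 3.63, 4.19 and 4.29 against 4.20, 3.92 and 4.04, a difference of -0.02 (-0.44 to 0.40).

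**Figure D3:**
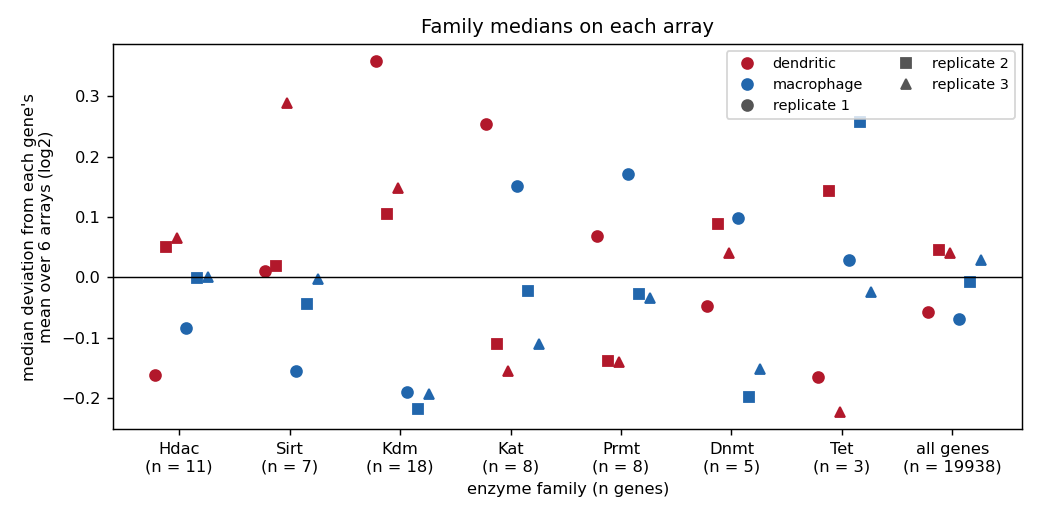
Median over each family of the deviation of a gene from its own mean over the 6 arrays, in log2 units, for each array, with all 19938 genes at the right. Colours are populations and shapes are replicates. The Kdm family lies between 0.105 and 0.358 on the dendritic and between -0.219 and -0.19 on the macrophage arrays, while the Hdac, Kat, Prmt, Dnmt and Tet families overlap between populations.

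The family medians on single arrays showed how even these differences were. The Kdm median deviation was 0.358, 0.105 and 0.149 on the dendritic arrays and -0.19, -0.219 and -0.193 on the macrophage arrays. The Sirt medians also did not overlap, at 0.01, 0.018 and 0.289 against -0.155, -0.045 and -0.002, but the nearest arrays differed by little. For Kdm, Kat and Prmt the highest array of each population was replicate 1, the arrays with the higher neutrophil markers. For Kdm this margin was small among the macrophage arrays.

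Enzymes that lay lysine methylation, or are related to such enzymes, were listed from textbook knowledge, with the Polycomb subunits Eed and Suz12. The family names above do not cover these genes. In the dendritic population 10 of 38 measured were higher and 2 lower (26.3% and 5.26%, beside 9.98% and 11.6% of all genes), with a median of 0.27 beside 0.03 over all genes. Here and in the lists below, the shares of all genes are not matched for level (2 of these 38 genes were dim). The higher genes include the subunit Suz12 (0.89 ± 0.13), which is not itself an enzyme. With 1 array left out, 8 to 10 were higher and 0 to 2 lower, 0 without macrophage replicate 2 or 3. Ezh2, the Polycomb enzyme that methylates lysine 27 of histone H3, measured 8.92, 8.99 and 9.21 in the dendritic and 6.75, 7.45 and 7.29 in the macrophage arrays. It was higher by 1.88 ± 0.19 (adjusted p = 0.000118). Of the erasers of this mark, Kdm6a and, less firmly, Kdm6b were called in the same direction as Ezh2 and Kdm7a in the opposite one. Ezh1 differed by 0.28 (adjusted p = 0.155). The lysine 9 enzymes Setdb2 (1.30 ± 0.17) and Suv39h2 (1.18 ± 0.24) were higher too. The lower genes were Prdm9 (-0.51 ± 0.13) and Smyd3 (-0.50 ± 0.15). Prdm9 was called in 12 of 16 alternatives (limma adjusted p of 0.00425 to 0.0931), and the call of Smyd3 was lost in 9 of 16.

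Further acetyltransferases, demethylases and DNA repair genes linked to demethylation formed a list of 33, of which 7 were higher (21.2%, beside 9.98% of all genes) and 2 lower (6.06%, beside 11.6%), with a median of 0.00. With 1 array left out, 5 to 7 were higher and 1 to 3 lower, 1 without dendritic replicate 2 or any macrophage replicate. Gadd45b, a stress gene tied to active DNA demethylation, was higher by 4.01 ± 0.17 (adjusted p = 8.15e-07). The coactivator Ncoa2 (1.21 ± 0.16) and the histone acetyltransferase Hat1 (1.15 ± 0.14) were also higher. Of the paired coactivators, Crebbp was higher by 0.65 ± 0.18 (adjusted p = 0.03, and 0.00466 to 0.114 over the alternatives) and Ep300 differed by -0.18 (0.615). Carm1, an arginine methyltransferase outside the numbered names, differed by 0.41 (0.087). Clock (-1.07 ± 0.21) and the arginine deiminase Padi2 (-0.47 ± 0.13, a call lost in 8 of 15 alternatives) were lower.

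Subunits of the complexes in which the enzymes work, listed with partner proteins of the enzymes, did not move one way. Of 58 genes measured, 13 were higher (22.4%, beside 9.98% of all genes) and 7 lower (12.1%, beside 11.6%), with a median of 0.21. The higher genes include the partner Uhrf1, and the lower ones include the partners Mef2c and Mef2d. The count of higher genes fell to 8 and 7 without dendritic replicates 2 and 3, and to 4 and 6 without macrophage replicates 2 and 3. Without macrophage replicate 3 the count of lower ones was 4, where 1927 of all genes were lower. Uhrf1, which brings Dnmt1 to newly replicated DNA, was higher by 1.07 ± 0.33 (adjusted p = 0.0459, and 0.000285 to 0.159 over the alternatives), the corepressor subunit Tbl1x by 1.04 ± 0.13, and Suds3 of the Sin3 complex by 0.93 ± 0.15. The Sin3 subunit Sap30 (-0.93 ± 0.27, adjusted p of 0.000959 to 0.137 over the alternatives) and the acetyltransferase subunit Ing3 (-0.93 ± 0.17) were lower. The partners of Hdac4 were lower with it in part: Mef2c by -1.31 ± 0.22 (adjusted p = 0.00256) and Mef2d by -0.47 ± 0.14 (0.0383, a call lost in 9 of 16 alternatives), while Mef2a differed by -0.26 (0.347).

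**Figure D4:**
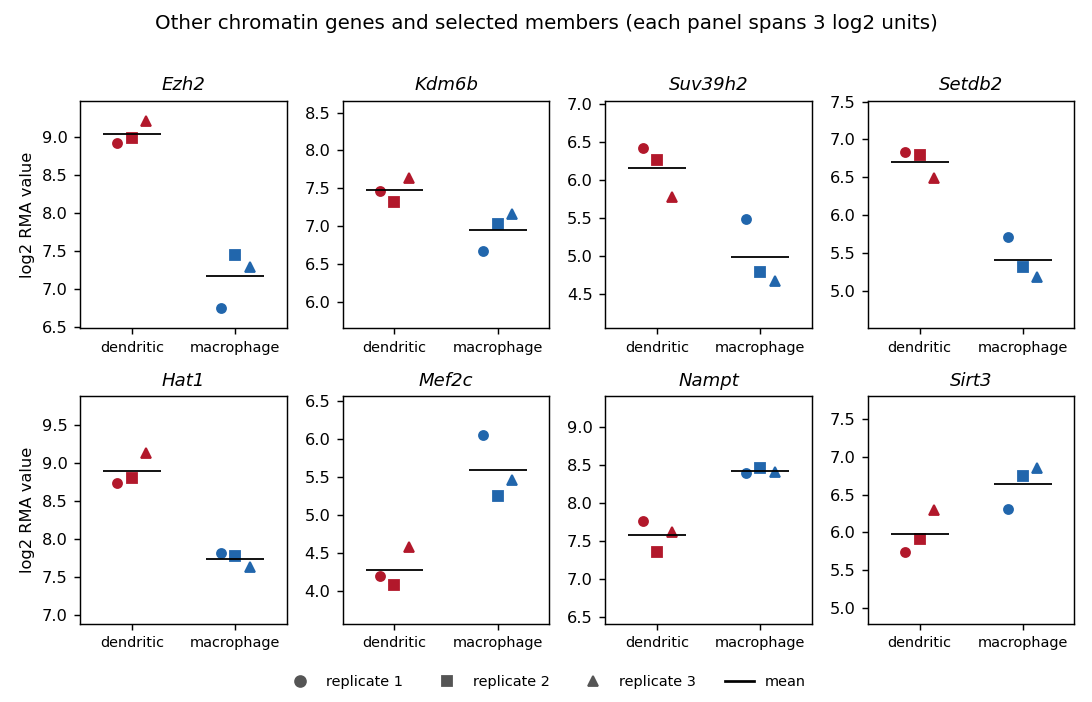
Log2 RMA values on each array for 6 genes of the other chromatin and cofactor lists (Ezh2, Suv39h2, Setdb2, Hat1, Mef2c, Nampt) and the members Kdm6b and Sirt3. Marker shapes are replicates, black lines are means, and every panel spans 3 log2 units. Ezh2 is 1.88 higher in the dendritic population, while the Kdm6b and Sirt3 groups lie close together.

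Many of these genes are known to follow the cell cycle. In the dendritic population 6 of 21 measured cell cycle genes were lower (28.6%, beside 11.6% of all genes) and 3 higher (14.3%, beside 9.98%). Under the replicate block 9 were lower and 5 higher, and without replicate 1 of both populations 12 were lower and 3 higher. These 2 fits called 26.1% and 24.7% of all genes, beside 21.6% in the main fit. The count of lower genes in the list was 1 without dendritic replicate 2, where 1854 of all genes were lower (2322 in the main fit). It was 2 without macrophage replicate 2 or 3 (1824 and 1927 of all genes). In these fits the list no longer stood clearly above all genes. The count was 5 and 4 without dendritic replicates 1 and 3 (2507 and 1891 of all genes), and 11 without macrophage replicate 1 (2185). The mean of the list was 5.80 to 5.90 on the dendritic arrays and 5.74, 6.56 and 6.54 on the macrophage arrays. Mki67 measured 4.57, 4.84 and 4.80 against 6.00, 7.33 and 7.32, a difference of -2.15 ± 0.32 (adjusted p = 0.00122). The higher genes were Mcm6 (1.54 ± 0.24), Tk1 (1.39 ± 0.20) and Tyms (1.20 ± 0.18), which serve DNA replication or nucleotide supply. Of other genes of that kind, Pcna was lower by -0.56 ± 0.14 (adjusted p = 0.0167) and Rrm2 by -1.14 ± 0.32 (0.0319). These calls were lost in 4 of 16 and 5 of 15 alternatives. Mcm2 (0.38), Mcm3 (0.47), Mcm4 (0.32), Mcm5 (0.31) and Mcm7 (0.38) had values above 0 but were not called. Under the replicate block Mcm2 and Mcm3 were called higher (limma adjusted p = 0.0447 and 0.0232). Ezh2 and Uhrf1 were thus higher in the population with the lower Mki67 and the higher Mcm6, Tk1 and Tyms. The part of the cell cycle in the enzyme differences was not tested.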

How the data were processed

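Gene expression was measured on 6 arrays, 3 per population, grouped by their titles. The authors deposited log2 values of 35556 probe sets, for which RMA and R (3.0.2) are named, per the submitters' processing notes. How arrays were batched for RMA, how probe sets were defined and whether rows were filtered is not stated in the labels used here. RMA normalizes arrays by quantiles and compresses differences of dim genes, and there are no detection calls.

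Probe sets with exactly 1 symbol in the platform table (21789) were kept, and symbols were looked up by Entrez identifier in a RefSeq table of GRCm38.p6 (21698 found, 0 changed). The brightest probe set over the 6 arrays stood for each of 19938 genes, and 5 members had several. All 60 members were tested, and 7 had a mean under every array's median. The test was limma 3.58.1 (2-sided) in R 4.3.3 on all genes, with the population as the only term and no filter on level. It was tested on simulated data. Tables and figures used Python 3.11.15, pandas 2.3.3 and matplotlib 3.10.9. Precision is limited by 3 arrays per population.

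The deviations from the population mean correlated between arrays of one number at 0.385, 0.147 and 0.272. The array pair of dendritic replicate 2 and macrophage replicate 3 reached 0.155. Whether the replicate numbers in the titles pair the samples is thus not settled. The main fit ignores these numbers, and a pairing by number was tried as an alternative, the replicate block. A fit with a replicate block is given where it changes the call of a named gene, or a count by over 1.5 times. Alternatives were other normalizations, filters, probe set rules, variance models and array weights, and leaving out arrays.

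Members and lists were chosen with earlier results of these data known. Named with every array's value were called members of at least 2-fold, the member with the largest difference in each family, and all Dnmt and Tet genes. Of each other list up to 3 called genes per direction were named, with a few set genes. Pcna, Rrm2, Eed, Suz12, Mcm2, Mcm3, Mcm4, Mcm5 and Mcm7 were named after their values were seen. So were the single markers Cd79a, Mpo, Gata2 and Prss34. Kdm6b, Sirt3 and Hdac1 were given in full, and the promoters and motifs chosen, in the same way.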

Additional observations from a re-analysis of the deposited data

How the results depend on the processing

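Of the 17 called members, 12 were called in every alternative that tested them, among them the 7 of at least 2-fold. The exceptions were Dnmt3b, Hdac1, Kdm4d, Kdm6b and Sirt3. Leaving out 1 array gave 9 to 10 members called higher, 4 to 5 called lower and 3311 to 4625 genes called in all. Under the replicate block 14 members were called higher and 7 lower: the 17 kept their calls, and Hdac3, Hdac5, Kdm5a and Prmt5 were added. That fit also called more of all genes, 26.1% (2429 higher and 2778 lower) beside 21.6% in the main fit. Adjusting over all probe sets kept 13 calls. Kdm4d was lost without macrophage replicate 2 (0.37, adjusted p = 0.205), and Dnmt3b likewise (0.47, 0.11). The Dnmt median was 0.33 with array weights and 0.049 to 0.29 when 1 array was left out, and the Prmt median was then -0.18 to 0.036. The causes were not tested. The genes named from the other lists were run through the same alternatives, a choice made after seeing the data. Eed, Suz12, Mcm2, Mcm3, Mcm4, Mcm5 and Mcm7 are left out here, apart from the replicate block. The replicate block changed the calls of Mcm2 and Mcm3 and of no other gene named from these lists.

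A change of sign occurred for 15 members, none of them called and none with a difference over 0.18. After quantile normalization again Kdm5b was 0.017 and Prmt8 -0.046. With 75th percentile centring Hdac9 was 0.011, Kdm5b 0.032 and Tet1 0.035. With array weights the values were -0.012 (Hdac8), 0.04 (Hdac9), 0.00 (Kat6b), -0.04 (Kdm2a), -0.061 (Prmt1) and 0.20 (Tet1). Without replicate 1 of both populations they were -0.011 (Kat8), -0.066 (Kdm2a), -0.015 (Kdm5d), -0.065 (Prmt1) and 0.26 (Tet1). When 1 array was left out, the ranges were -0.06 to 0.33 for Hdac2, -0.15 to 0.044 for Hdac7, -0.11 to 0.20 for Hdac8, -0.17 to 0.091 for Hdac9, -0.087 to 0.21 for Kat6b, -0.15 to 0.15 for Kdm2a, -0.20 to 0.34 for Kdm3a, -0.25 to 0.19 for Kdm5b, -0.05 to 0.15 for Kdm5d, -0.15 to 0.12 for Prmt1, -0.26 to 0.069 for Prmt3, -0.30 to 0.018 for Prmt6, -0.062 to 0.092 for Prmt8 and -0.15 to 0.18 for Tet1. Ep300, of the other lists and not called, ranged from -0.30 to 0.01. The directions of these genes are thus not settled by 3 arrays per population.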

Other observations

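Several enzymes depend on metabolites, and a list of 21 measured genes that supply or consume these cofactors was set beside them. In the dendritic population 8 were lower (38.1%, beside 11.6% of all genes), 2 were higher (9.52%, beside 9.98%) and 11 were not called, with a median of -0.33. Nampt, the rate-limiting enzyme of NAD salvage and so of the sirtuins' cofactor, measured 7.76, 7.36 and 7.62 in the dendritic and 8.40, 8.46 and 8.41 in the macrophage arrays. It differed by -0.84 ± 0.14 (limma adjusted p = 0.002), opposite to Sirt1. The higher genes were both of NAD synthesis, Nmnat3 (1.06 ± 0.14) and Naprt (0.93 ± 0.14). Fumarate hydratase Fh1 (-1.39 ± 0.13) and the succinate dehydrogenase subunit Sdhb (-1.20 ± 0.15), which remove products that can inhibit the 2-oxoglutarate enzymes of the Kdm and Tet families, were lower. So was Acss2 (-1.35 ± 0.38, adjusted p of 5e-04 to 0.0929 over the alternatives), which makes acetyl-CoA from acetate, with macrophage values spread from 5.65 to 7.44.

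The sex chromosome genes gave the same picture on all 6 arrays. The Y-linked genes Eif2s3y (7.44 to 7.99), Uty (5.67 to 6.25) and Kdm5d were measured above the array medians of 4.79 to 4.96, and Xist lay at 3.05 to 3.39, below them. None of these 4 genes was called between the populations.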
